A study of Mus musculus with 6 samples.

Results

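The genes described here are 10 genes of the ATF4 stress response and of serine and one-carbon metabolism, namely Atf4, Ddit3, Trib3, Asns, Psat1, Phgdh, Shmt2, Mthfd2, Cth and Chac1. They were chosen by name, with earlier results of these data known, and all 10 were among the 23337 genes of the count table. Their polyadenylated RNA was measured by sequencing in 6 libraries of primary mouse leukemia labelled neonatal, 3 treated with ccl5 and 3 under control conditions. CCL5 is a chemokine, a secreted protein that attracts leukocytes, and the series title describes the leukemia as MLL-rearranged, which all 6 libraries share. The ccl5 replicates 2 and 3 and control replicate 3 were labelled primary transplants, and ccl5 replicate 1 a tertiary transplant. No transplant was labelled for control replicates 1 and 2. The labels give no strain, dose, treatment time or number of animals, so p-values measure only the spread between these libraries.

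ATF4 is a transcription factor made mainly by regulated translation. When kinases phosphorylate the initiation factor eIF2, for instance during amino acid shortage or stress in the endoplasmic reticulum, most protein synthesis slows while the Atf4 mRNA is translated more. The level of its mRNA therefore does not give the level of the protein. ATF4 pairs with C/EBP and related proteins on composite DNA elements and raises genes that import and synthesise amino acids, charge tRNA and limit the response itself. Serine made from a glycolytic intermediate supplies glycine, cysteine and folate-bound carbon units, which dividing leukemia cells use to build nucleotides.

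The promoters are shown because the genes are known as ATF4 targets and several varied together across these libraries. RefSeq promoter windows (GRCm38.p6) were held for 9 of the 10 genes, and Cth was not among them. The 250 bases before each start were searched on both strands for TGATGNAA, a form of the ATF4 and C/EBP composite element. It occurred in Asns and Chac1, 2 of these 9 genes, and in 3.91% of 27025 genes with a window. Another form, TGNNGCAA, was added after the sequences were seen and shares with the first form the match TTGCATCA in Chac1. It allows more bases elsewhere but requires a C where the first form allows any base, and it had no match in Asns. This added form occurred in Trib3, Psat1 and Chac1, 3 of the 9 genes, and in 11% of all genes with a window. A match is a description of letters, not a measured binding site. For Psat1 the window of 1 of its 2 listed starts is shown. Capitals mark the matches to either form in the following windows, written 5′ to 3′ on the strand of the gene.
Asns, chr6:7693210-7693459, minus strand: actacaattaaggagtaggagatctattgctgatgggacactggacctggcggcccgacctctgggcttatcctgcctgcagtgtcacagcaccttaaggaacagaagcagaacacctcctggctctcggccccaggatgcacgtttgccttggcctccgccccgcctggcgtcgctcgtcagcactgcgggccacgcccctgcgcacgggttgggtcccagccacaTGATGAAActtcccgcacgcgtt
Chac1, chr2:119350992-119351241, plus strand: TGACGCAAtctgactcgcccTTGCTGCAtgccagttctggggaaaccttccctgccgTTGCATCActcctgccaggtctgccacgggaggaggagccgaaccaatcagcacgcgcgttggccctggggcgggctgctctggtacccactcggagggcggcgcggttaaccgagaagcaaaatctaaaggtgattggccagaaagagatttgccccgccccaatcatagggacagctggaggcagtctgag
Trib3, chr2:152344061-152344310, minus strand: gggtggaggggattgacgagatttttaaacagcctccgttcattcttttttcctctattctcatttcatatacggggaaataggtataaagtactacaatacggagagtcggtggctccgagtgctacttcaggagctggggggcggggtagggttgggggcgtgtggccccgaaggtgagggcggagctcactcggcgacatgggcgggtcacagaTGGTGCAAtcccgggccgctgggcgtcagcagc
Psat1, chr19:15925060-15925309, minus strand: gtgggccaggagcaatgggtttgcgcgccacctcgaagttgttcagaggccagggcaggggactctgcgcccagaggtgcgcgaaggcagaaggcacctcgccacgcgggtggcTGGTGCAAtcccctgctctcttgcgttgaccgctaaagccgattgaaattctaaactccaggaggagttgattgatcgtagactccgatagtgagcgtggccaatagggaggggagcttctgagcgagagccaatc
The Asns match began 23 bases before the start, the Trib3 match 33 bases and the Psat1 match 136 bases. The Chac1 matches began 250, 230 and 193 bases before the start.

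The 6 libraries did not divide by treatment, and ccl5 replicate 2 was as close to a control library as control replicates 1 and 2 were to each other. Whether each library carries the right label was not tested, and every difference between ccl5 and control libraries takes the labels as given. Over the 12174 genes that passed a filter on low counts, the root mean square difference in log2 CPM (counts scaled to the effective library size) was 0.23 between ccl5 replicate 2 and control replicate 3. It was 0.32 between ccl5 replicates 1 and 3 and 0.23 between control replicates 1 and 2, and lay between 1.11 and 1.47 for every other pair. The counts within each close pair still differed by 3.69 to 7.30 times the variance of read sampling alone, more than 1 library deposited in duplicate would, and each was counted as 1 sample. That measure does not show whether the libraries of a pair came from separate animals or cultures, which the labels do not give. Reads of 4 Y-linked genes numbered 0 in ccl5 replicates 1 and 3 and at least 5103 in the other 4 libraries. Total counts were 13421100 to 16613837 with ccl5 and 15507823 to 18445095 in controls, so 3 counts correspond to 0.163 to 0.224 CPM before scaling. Leukocyte and leukemia markers (Ptprc, Itgam, Hoxa9, Meis1, Cd33 and the PU.1 gene) were present throughout, at a summed 1542 to 1756 CPM with ccl5 and 1579 to 2287 CPM in controls. The sum does not show single genes. Cd33 stood at 36.4, 187 and 25.5 CPM with ccl5, in order of replicate, against 469, 478 and 195 in controls. Hoxa9 was also wholly lower with ccl5, and the PU.1 gene wholly higher, beside 7.49% and 8.27% of all tested genes in these directions.

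**Figure D1:**
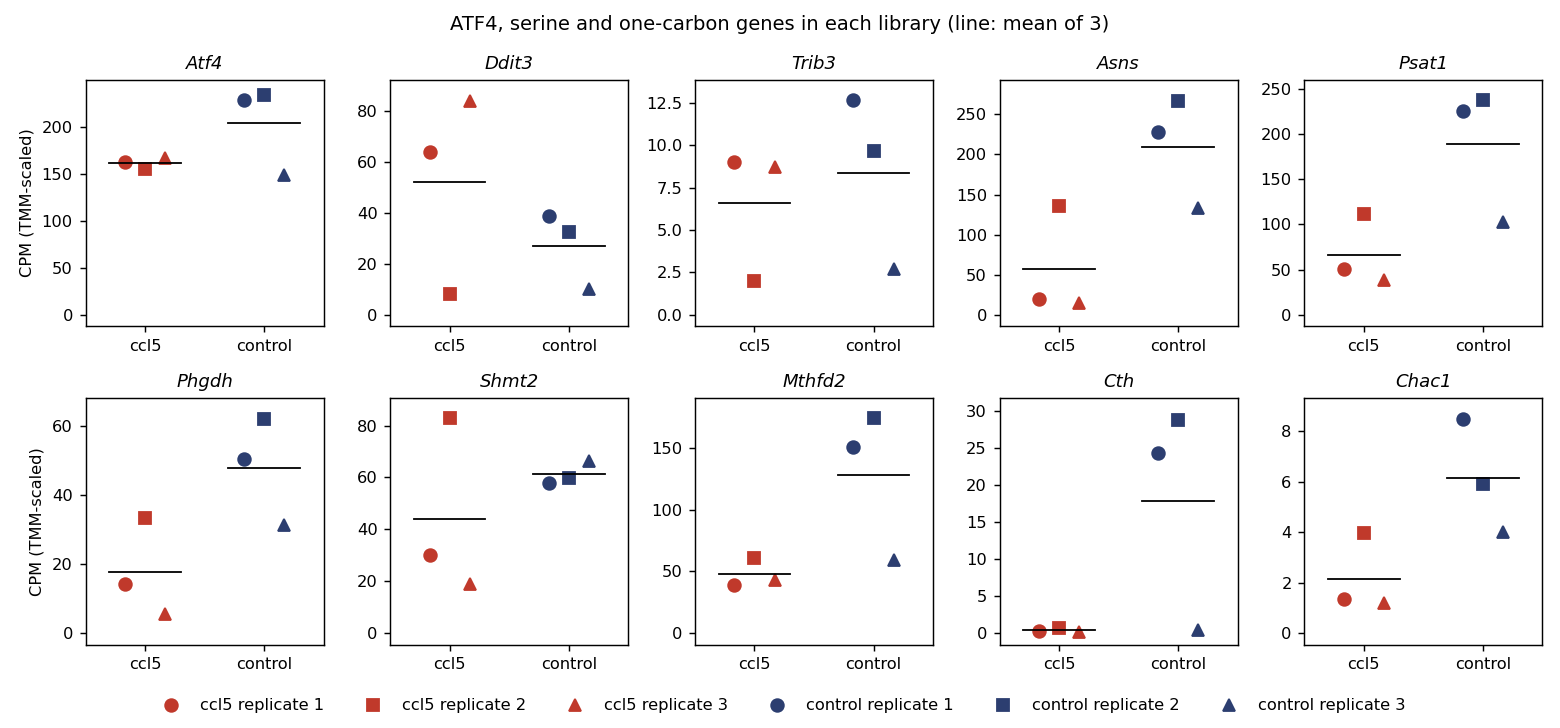
Level of each of the 10 genes in CPM (vertical axis, linear, scaled per gene) in the 3 ccl5 libraries (left, red) and the 3 control libraries (right, blue), with marker shape giving the replicate and the line the mean of 3. Control replicates 1 and 2 were the highest libraries for 8 of the 10 genes, and the level in ccl5 replicate 2 (red square) was 0.748 to 1.36 times that in control replicate 3 (blue triangle).

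Among the regulators, Atf4 itself varied least of the 10 genes, and Ddit3 was the only gene with a higher mean with ccl5. Atf4 (chr15:80255184-80257541, mm10, plus strand) had levels of 162, 155 and 167 CPM in the 3 ccl5 libraries, in order of replicate, against 228, 234 and 149 in the 3 control libraries. The ccl5 libraries lay close together, and control replicate 3 lay below all of them, so the groups overlapped. Mean and SD over 3 libraries were 162 ± 5.87 CPM with ccl5, against 204 ± 47.4 CPM in controls. The log2 fold change was -0.33 (SE 0.21, adjusted p = 0.496 by edgeR's quasi-likelihood test).

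Ddit3 (chr10:127290793-127296288, plus strand) encodes CHOP, a factor that ATF4 induces and that promotes death under lasting stress. It had levels of 64.0, 8.24 and 84.0 CPM in the 3 ccl5 libraries, in order of replicate, and 38.7, 32.4 and 10.3 in the 3 control libraries. The highest and the lowest library of all were both ccl5 libraries, with a log2 fold change of 0.94 (SE 0.88, adjusted p = 0.639 in edgeR). Trib3 (chr2:152337425-152344060, minus strand) encodes a pseudokinase that restrains ATF4. It stood at 9.05, 2.02 and 8.74 CPM with ccl5, against 12.7, 9.65 and 2.70 in controls. Like Ddit3 it was lowest in ccl5 replicate 2 and control replicate 3, and its log2 fold change was -0.34 (SE 0.76, adjusted p = 0.854 in edgeR). In bulk RNA, fewer cells of a kind and less RNA per cell cannot be told apart for any of these genes.

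Asns had the widest range of the genes with a substantial level. It encodes asparagine synthetase, which makes asparagine from aspartate with glutamine as nitrogen donor (chr6:7675171-7693182, minus strand). It had levels of 20.2, 135 and 15.3 CPM in the 3 ccl5 libraries, in order of replicate, against 228, 267 and 134 in the 3 control libraries. Mean and SD over 3 libraries were 56.9 ± 67.9 CPM with ccl5, against 209 ± 68.5 CPM in controls, and the highest library had 17.4 times the level of the lowest. The ccl5 replicates 1 and 3 lay far below every control library, while ccl5 replicate 2 lay just above control replicate 3. The log2 fold change was -1.88 (SE 0.90, adjusted p = 0.396 in edgeR).

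The serine synthesis enzymes followed the layout of Asns, with lower means with ccl5 that rested on replicates 1 and 3. Phgdh, the phosphoglycerate dehydrogenase that begins the pathway (chr3:98313171-98339969, minus strand), stood at 14.4, 33.5 and 5.46 CPM with ccl5, against 50.5, 62.0 and 31.5 in controls. Psat1, the aminotransferase of the next step (chr19:15905123-15925059, minus strand), stood at 50.2, 111 and 38.1 CPM with ccl5, against 226, 238 and 102 in controls. For both genes control replicate 3 lay just below ccl5 replicate 2, so the groups overlapped by that single pair of libraries. Their log2 fold changes were -1.43 (SE 0.66) for Phgdh and -1.50 (SE 0.52) for Psat1, with adjusted p of 0.386 and 0.365 in edgeR.

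The mitochondrial folate enzymes differed from each other. Shmt2 (chr10:127517123-127522444, minus strand) encodes the hydroxymethyltransferase that splits serine into glycine and a folate-bound carbon unit. It stood at 30.2, 83.0 and 18.8 CPM with ccl5, against 57.8, 59.8 and 66.2 in controls. Its control libraries lay close together, and the ccl5 libraries lay on both sides of them (log2 fold change -0.48 with an SE of 0.54, edgeR adjusted p = 0.705). Mthfd2 (chr6:83305704-83317604, minus strand) encodes the dehydrogenase and cyclohydrolase that acts on this folate unit next. It stood at 39.4, 60.5 and 43.1 CPM with ccl5, against 150, 174 and 59.0 in controls. Here control replicates 1 and 2 stood above the other 4 libraries, which lay within a narrow range (log2 fold change -1.42 with an SE of 0.43, edgeR adjusted p = 0.365).

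Of the cysteine and glutathione genes, Cth had the largest difference of the 10, and Chac1 was the only gene whose groups did not overlap. Cth encodes cystathionine gamma-lyase, which releases cysteine in transsulfuration (chr3:157894248-157925063, minus strand). Its raw counts were 5, 11 and 2 in the 3 ccl5 libraries, against 384, 539 and 9 in the 3 control libraries. In CPM these were 0.356, 0.672 and 0.182 with ccl5, against 24.3, 28.7 and 0.495 in controls. It was thus near the limit of detection in 4 libraries and clearly present in control replicates 1 and 2 alone. The fitted log2 fold change of -5.40 (SE 1.48, adjusted p = 0.365 in edgeR) rests on these few counts.

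Chac1, which encodes an enzyme that breaks down glutathione (chr2:119351242-119354327, plus strand), stood at 1.35, 3.97 and 1.18 CPM with ccl5, against 8.50, 5.92 and 4.02 in controls. Every ccl5 library was below every control library, by a small step between ccl5 replicate 2 and control replicate 3. The log2 fold change was -1.49 (SE 0.59, adjusted p = 0.365 in edgeR). Over all tested genes 7.49% lay wholly lower with ccl5, so 1 of 10 here was close to that share.

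Tested over all 6 libraries, 0 of the 10 genes passed an adjusted p of 0.05 in edgeR, where the share among all 12174 tested genes was 0%. An unadjusted p under 0.05 was reached by 4 of the 10 (Psat1, Mthfd2, Cth and Chac1), all lower with ccl5, against 4.67% of tested genes in that direction. All 10 genes passed the filter on low counts. In 9 of the 10 the fold change was below 0, with a median of -1.43, beside a median of -0.01 over all tested genes. Because the 10 genes were chosen with earlier results of these data known, this comparison with all genes is a description and not a test. DESeq2's Wald test called Cth alone (log2 fold change -5.43, adjusted p = 0.00548), with 1.64% of all genes called, 0.666% lower and 0.97% higher with ccl5. The limma-voom fit with sample quality weights called 9 of the 10, all but Trib3, and 66.5% of all genes.

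Which libraries were kept decided these calls. Without ccl5 replicate 2, edgeR called 5 of the 10 genes as lower with ccl5, beside 11.9% of all tested genes in that direction. They were Asns (log2 fold change -3.56, SE 0.38, adjusted p = 0.00561), Shmt2 (-1.32, SE 0.24, adjusted p = 0.0199), Chac1 (-2.26, SE 0.44, adjusted p = 0.0232), Psat1 (-2.09, SE 0.43, adjusted p = 0.0269) and Phgdh (-2.26, SE 0.53, adjusted p = 0.0362). The ccl5 libraries left in that fit, replicates 1 and 3, were the libraries without Y-linked reads, and the treatment and this difference cannot be told apart there. Without control replicate 3, edgeR called Cth (-5.95, SE 0.53, adjusted p = 0.0279) and Mthfd2 (-1.76, SE 0.24, adjusted p = 0.0478) as lower, with 1.88% of all genes called, 1.34% as lower. Leaving out any other single library gave 0 calls among the 10, and 0% of all tested genes.

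Among the primary transplants, which leave control replicate 3 as the lone control, the median of the 10 log2 fold changes was -0.29. The spread in that fit came from ccl5 replicates 2 and 3 alone, which differed most of all pairs (root mean square difference 1.47). The lone control is assumed to vary like the ccl5 libraries. With the 4 libraries that held Y-linked reads, ccl5 replicate 2 as the lone treated library against the 3 controls, the median was -0.70. The spread there came from the 3 controls alone, of which replicate 3 stood apart. Whether a gene was called in either fit therefore shows nothing about stability. The ratio of ccl5 replicate 2 to control replicate 3 was 0.748 for Trib3, 1.36 for Cth and between these for the other 8 genes.

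**Figure D2:**
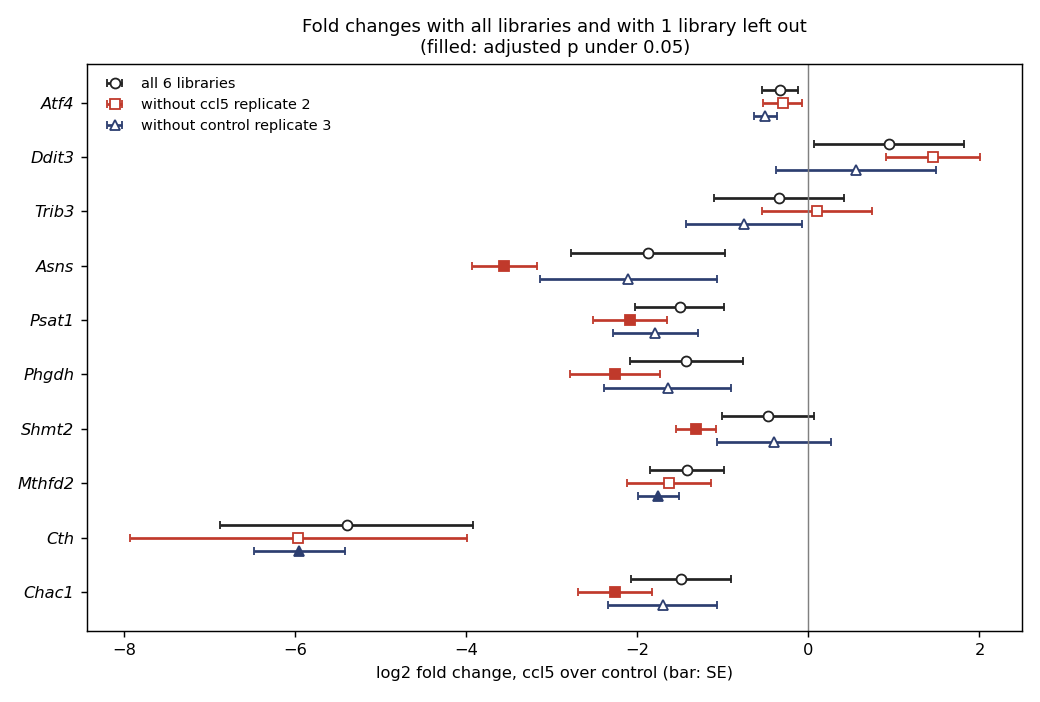
Log2 fold change of each gene, ccl5 over control (horizontal axis, bars give the SE), with all 6 libraries (circles), without ccl5 replicate 2 (squares) and without control replicate 3 (triangles); filled markers have an adjusted p under 0.05 in edgeR. No circle is filled, 5 squares and 2 triangles are, and Trib3 crosses 0 without ccl5 replicate 2 (0.10).

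The layouts across libraries set the 10 genes apart from each other. Control replicates 1 and 2 were the highest libraries for 8 of the 10, the exceptions being Ddit3 and Shmt2, and for 21.4% of all tested genes. The ccl5 replicates 1 and 3 were the lowest libraries for 7 of the 10, the exceptions being the regulators Atf4, Ddit3 and Trib3, and for 30.3% of all tested genes. Both held for 6 genes, namely Asns, Psat1, Phgdh, Mthfd2, Cth and Chac1, and for 8.85% of all tested genes. These layouts were chosen after the values were seen and were not tested. Measured as the root mean square difference of log2 CPM standardised per gene, over 6 libraries, Mthfd2 and Cth were the closest of the 10 to each other (0.17 SD), and Asns and Chac1 next (0.20 SD). Ddit3 and Shmt2 were the farthest apart (1.76 SD).

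Levels between genes were compared as CPM per kilobase of exon. Atf4 was the most abundant of the 10 in 5 libraries, at 86.3 to 96.9 CPM per kilobase in ccl5 replicates 1 to 3 and control replicate 3 and 132 in control replicate 1. In control replicate 2 Asns, at 138, and Atf4, at 136, were about level. The gene next to Atf4 differed between libraries. It was Ddit3 in ccl5 replicates 1 and 3, at 73.5 and 96.4 CPM per kilobase, and Asns in ccl5 replicate 2 and control replicates 1 and 3, at 70.2, 118 and 69.3. Relative to Atf4 in the same library, Asns stood at 0.111, 0.779 and 0.082 in ccl5 replicates 1 to 3 and at 0.897, 1.02 and 0.803 in control replicates 1 to 3. For Ddit3 the same ratio was 0.782, 0.105 and 0.995 with ccl5 and 0.336, 0.274 and 0.137 in controls. The low libraries of the Asns ratio were thus the high libraries of the Ddit3 ratio.

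Other genes of these pathways were read from 8 lists, and 0 of them passed the test with all 6 libraries in edgeR. For serine and glycine synthesis, 8 of 9 further genes were tested, all 8 with a fold change below 0 and a median of -0.43. Psph, the phosphatase that completes serine synthesis, stood at 9.40, 22.4 and 9.10 CPM with ccl5, against 28.2, 30.4 and 21.0 in controls, the layout of Psat1. Dld, a lipoamide dehydrogenase shared with the glycine cleavage system, stood at 110, 125 and 117 CPM with ccl5, against 178, 176 and 133 in controls, without overlap. Gnmt, a glycine methyltransferase, was at most 1.16 CPM in every library. Of the 8 tested, 2 were wholly lower with ccl5, against 7.49% of all tested genes, and 0 were wholly higher. Without ccl5 replicate 2, Psph was called lower (log2 fold change -1.52, adjusted p = 0.0110 in edgeR), and of the 9 genes of this list 2 were called lower and 1 higher. Over all genes that fit called 11.9% lower and 14.3% higher.

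In the folate cycle, all 19 listed genes were tested, 5 above and 14 below 0, with a median of -0.22. Control replicates 1 and 2 were the highest libraries for 4 of the 19, against 21.4% of all tested genes. For 1 of the 19 ccl5 replicates 1 and 3 were also the lowest, against 8.85% of all tested genes. Aldh1l2, the mitochondrial formyltetrahydrofolate dehydrogenase, stood at 1.35, 1.53 and 1.18 CPM with ccl5, against 7.80, 9.38 and 1.32 in controls, so that control replicates 1 and 2 stood apart as they did for Mthfd2. Its cytosolic counterpart Aldh1l1 stood at 2.99, 2.93 and 2.18 CPM with ccl5, against 9.38, 8.74 and 4.02 in controls, without overlap. Mthfs, which returns formyl folate to the cycle, went the other way, at 44.6, 14.4 and 49.0 CPM with ccl5, against 12.7, 11.99 and 13.8 in controls. The ccl5 libraries were all higher for Mthfs, by a small margin in replicate 2. Of the 19, 1 was wholly higher and 1 wholly lower with ccl5, against 8.27% and 7.49% of all tested genes. The median of this list turned to 0.16 in the libraries with Y-linked reads.

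In the list of transsulfuration, methionine and glutathione genes, 15 of 17 were tested, 6 above and 9 below 0, with a median of -0.24 that turned to 0.01 in the libraries with Y-linked reads. Cbs, the enzyme before Cth in transsulfuration and named after its values were seen, was at most 0.165 CPM in every library. Gclm and Gclc, the subunits of the enzyme that begins glutathione synthesis, were higher in every ccl5 library. Gclm stood at 208, 116 and 171 CPM with ccl5, against 109, 112 and 107 in controls, and Gclc stood at 54.1, 47.7 and 58.2 CPM with ccl5, against 39.9, 44.0 and 41.9 in controls. Csad, which makes taurine precursors from cysteine sulfinate, stood at 6.84, 3.72 and 5.55 CPM with ccl5, against 3.23, 2.98 and 2.26 in controls. These 3 genes, named for their small p, made up the 3 of 15 tested that were wholly higher with ccl5, against 8.27% of all tested genes. Another 2 of the 15 were wholly lower with ccl5, against 7.49% of all tested genes. The adjusted p of Gclm, Gclc and Csad lay between 0.365 and 0.367 in edgeR.

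The 24 tested genes among 26 other known ATF4 targets were divided, 13 above and 11 below 0, with a median of 0.07. In the libraries with Y-linked reads 7 were above and 17 below 0, with a median of -0.52, and among primary transplants the median was 0.29. Pycr1, a proline synthesis enzyme, stood at 3.92, 3.48 and 4.005 CPM with ccl5, against 28.6, 30.6 and 2.86 in controls, like Cth and Mthfd2. Tnfrsf10b, a death receptor, stood at 3.85, 4.76 and 3.91 CPM with ccl5, against 11.03, 10.6 and 5.06 in controls. Atf5, a factor related to ATF4, stood at 23.0, 16.9 and 20.02 CPM with ccl5, against 11.4, 8.90 and 14.9 in controls. In 11 of the 24, ccl5 replicates 1 and 3 were the highest libraries, as for Ddit3, against 30.8% of all tested genes. Examples chosen after their values were seen are the stress genes Atf3, at 549, 30.5 and 605 CPM with ccl5, against 60.2, 58.6 and 34.9 in controls, and Gdf15, at 75.7, 5.25 and 85.1 CPM with ccl5, against 17.4, 13.3 and 5.996 in controls. Without ccl5 replicate 2, edgeR called 5 of the 24 as higher and 1 as lower, against 14.3% and 11.9% of all genes. Among the 5 were Atf3 (log2 fold change 3.50, adjusted p = 0.00301) and Gdf15 (2.72, adjusted p = 0.0149).

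**Figure D3:**
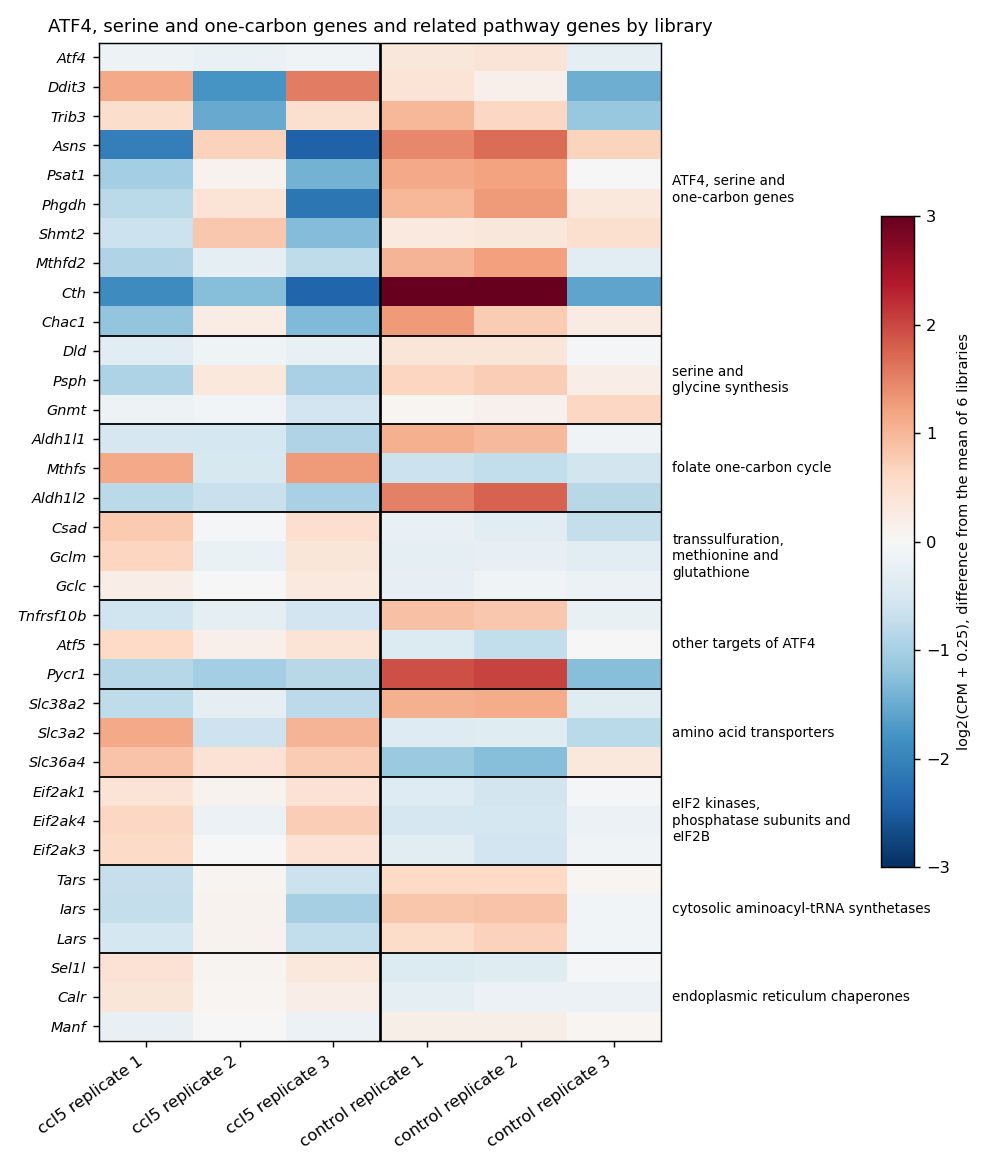
Log2(CPM + 0.25) of the 10 genes and of 3 genes of smallest p per related list, as the difference from the mean of 6 libraries (colour, limited to 3 in either direction), with ccl5 replicates 1 to 3 left and control replicates 1 to 3 right of the line. Asns, Psat1, Phgdh and Psph are lowest in ccl5 replicates 1 and 3, Cth, Aldh1l2 and Pycr1 are high in control replicates 1 and 2 alone, and Ddit3 and Slc3a2 are highest in ccl5 replicates 1 and 3.

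Of 12 amino acid transporters 10 were tested, 3 above and 7 below 0, with a median of -0.68. With 11 tested, that median was -0.09 among primary transplants and -0.09 in the libraries with Y-linked reads. Slc38a2, a glutamine and alanine carrier that ATF4 induces, stood at 70.2, 98.2 and 69.1 CPM with ccl5, against 247, 255 and 91.9 in controls. Slc3a2, the heavy chain shared by several transporters, stood at 276, 81.1 and 255 CPM with ccl5, against 95.8, 96.6 and 71.4 in controls. Slc36a4, a proline and tryptophan transporter, stood at 49.2, 36.3 and 46.1 CPM with ccl5, against 12.3, 11.04 and 33.9 in controls, without overlap. It was the 1 of the 10 tested that was wholly higher with ccl5, against 8.27% of all tested genes, and 0 were wholly lower.

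Of the 15 genes for eIF2 kinases, phosphatase subunits and eIF2B, 11 were above and 4 below 0, with a median of 0.13 that turned to -0.04 among primary transplants. Eif2ak1, the haem-sensing kinase, stood at 82.8, 66.3 and 83.9 CPM with ccl5, against 47.3, 42.0 and 60.5 in controls. Eif2ak3, the kinase PERK of the endoplasmic reticulum, stood at 43.4, 29.1 and 39.6 CPM with ccl5, against 23.7, 19.6 and 27.2 in controls, also without overlap. Eif2ak4, the kinase GCN2 that senses uncharged tRNA, stood at 90.0, 52.3 and 98.6 CPM with ccl5, against 41.4, 41.0 and 52.5 in controls, with ccl5 replicate 2 just below control replicate 3. Their adjusted p was 0.365 in edgeR with all libraries. Without ccl5 replicate 2, edgeR called 5 of the 15 as higher and 2 as lower, against 14.3% and 11.9% of all genes. These 3 kinases, named for their small p, were among the 5, Eif2ak4 with a log2 fold change of 1.07 (adjusted p = 0.0124). Another eIF2 kinase, Eif2ak2, went the other way and was named after its values were seen. It stood at 48.9, 79.0 and 50.2 CPM with ccl5, against 85.1, 82.3 and 86.4 in controls, without overlap. Without ccl5 replicate 2 it was among the genes called lower (log2 fold change -0.77, adjusted p = 0.0102 in edgeR). Of the 15 genes, 2 were wholly higher and 3 wholly lower with ccl5, against 8.27% and 7.49% of all tested genes.

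Cytosolic aminoacyl-tRNA synthetases, some of which ATF4 also induces, were all 20 below 0, with a median log2 fold change of -0.48. Among primary transplants 9 were above and 11 below 0, with a median of -0.12. In the libraries with Y-linked reads 4 were above and 16 below 0, with a median of -0.34. Iars, for isoleucine, stood at 37.9, 68.0 and 31.3 CPM with ccl5, against 112, 114 and 59.3 in controls. Tars and Lars had log2 fold changes of -0.81 (SE 0.28) and -0.77 (SE 0.31). Control replicates 1 and 2 were the highest libraries for 16 of the 20, and without ccl5 replicate 2 edgeR called 9 of the 20 as lower with ccl5, against 11.9% of all genes in that fit. Endoplasmic reticulum chaperones and related genes were split, 8 above and 6 below 0, with a median of 0.07 that turned to -0.05 in the libraries with Y-linked reads. Of their genes with the smallest p, Sel1l, of the degradation machinery, differed by 0.55 (SE 0.18) on the log2 scale. Calr, a calcium-binding chaperone, differed by 0.43 (SE 0.17), and Manf, a secreted stress protein, by -0.28 (SE 0.14).

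**Figure D4:**
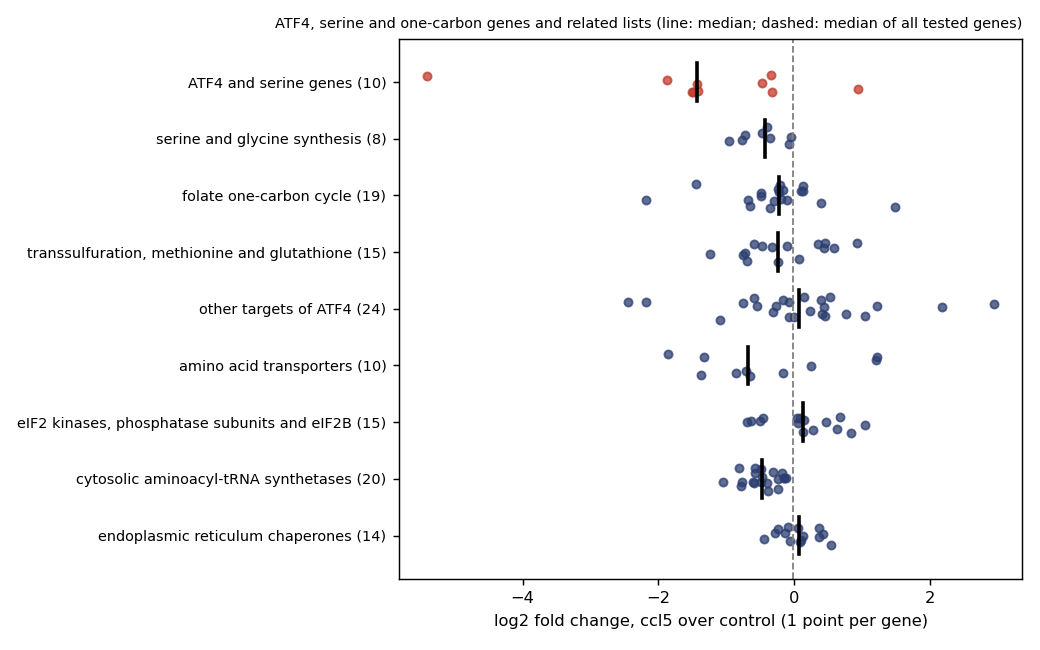
Log2 fold change, ccl5 over control, of the 10 genes (red) and of the tested genes of 8 related lists (blue), 1 point per gene, with the median as a line, the number tested in brackets and the median of all tested genes (-0.01) dashed. The 10 genes have a median of -1.43. The median is -0.68 for amino acid transporters, -0.48 for the tRNA synthetases and -0.43 for serine and glycine synthesis. Other ATF4 targets spread on both sides of 0, with a median of 0.07.

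Genes of other functions shared the mean layout of the 10 genes. Among 12164 other tested genes, those nearest to the mean standardised profile of the 10 were Dlst, Celf4, Atf7ip2, Sccpdh, Fam169b and Gripap1, each at a root mean square difference of 0.25 to 0.26 SD over 6 libraries. Celf4 stood at 5.63, 8.79 and 4.37 CPM with ccl5, against 34.1, 32.2 and 7.59 in controls, and Dlst, a subunit of the oxoglutarate dehydrogenase complex, 116, 126 and 110 CPM with ccl5, against 173, 170 and 126 in controls.

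Markers of division and of myeloid maturation moved with the same libraries. The summed level of 12 G2/M genes was 245, 2191 and 163 CPM with ccl5, against 877, 926 and 2102 in controls, and all 12 were lowest in ccl5 replicates 1 and 3. Asns, Psat1, Phgdh, Shmt2, Mthfd2, Cth and Chac1 were also lowest there, as were 30.3% of all tested genes. Apart from Shmt2, these 7 were higher in control replicates 1 and 2 than in ccl5 replicate 2 and control replicate 3. The division genes were highest in ccl5 replicate 2 and control replicate 3. The summed level of 10 monocyte and macrophage markers was 22295, 4104 and 25920 CPM with ccl5, against 12313, 12057 and 4469 in controls. Much of it was Lyz2, at 14736 CPM in ccl5 replicate 1 and 3024 in ccl5 replicate 2. Of the 10, 9 were highest in ccl5 replicates 1 and 3, as Ddit3 was, against 30.8% of all tested genes. The exception was Cd14, at 31.3, 17.6 and 29.9 CPM with ccl5, against 195, 188 and 18.4 in controls. The 8 neutrophil granule genes summed to 801, 13318 and 773 CPM with ccl5, against 2359, 2365 and 13062 in controls. Mmp8 of this list had another layout, at 465, 250 and 533 CPM with ccl5, against 44.1, 35.6 and 286 in controls. The part of these differences in the levels of the 10 genes was not tested. The 6 T and NK cell markers summed to at most 0.285 CPM with ccl5 and 0.480 CPM in controls, the 6 erythroid markers to at most 2.02 CPM with ccl5 and 1.98 CPM in controls, and 4 of 7 B cell markers did not exceed 3 counts in any library. Of the other B cell markers Cd79b was present throughout, at 10.5 to 15.0 CPM with ccl5 and 11.1 to 15.9 CPM in controls. The 6 stromal and endothelial markers summed to 27.1 to 86.1 CPM with ccl5 and 83.0 to 95.3 CPM in controls, nearly all of it Pecam1, which leukocytes also express.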

How the data were processed

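The deposited table held raw read counts per gene for 6 libraries, made by the authors with featureCounts 1.5.1 at primary alignments with the UCSC mm10 genes, per the file headers. The submitters' processing notes also name TopHat, Bowtie, Trimmomatic and DESeq2, with no version or role. No strand option was set, so reads of overlapping genes cannot be told apart. The deposited exon lengths (another column) were used for CPM per kilobase only.

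Groups came from the treatment labels. Counts were scaled by TMM and filtered with filterByExpr (minimum count 10), leaving 12174 of 18580 genes with a count. Differences were tested with edgeR 4.0.16 (quasi-likelihood F test, R 4.3.3), two-sided, Benjamini-Hochberg adjusted over all tested genes at 0.05. The code was also checked on simulated counts. A pass was required only at a smaller spread than these libraries have, so that check does not show which changes could be detected here. Fold changes are ccl5 over control, and SE is the absolute log2 fold change over the square root of F. Log2 CPM used a prior count of 2. Alternatives were DESeq2 1.42.0, limma 3.58.1 (voom), DESeq2 size factors, other filters, a threshold of 0.1 and fewer libraries. The 10 genes and the 16 lists (193 symbols, 2 matched by an older name) were chosen with earlier results of these data known. The text names the 10 genes, the 3 genes of smallest p per pathway list and the 6 nearest profiles, with cell type markers. Atf3, Gdf15, Cbs and Eif2ak2 lie outside that rule and were chosen after their values were seen.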

Additional observations from a re-analysis of the deposited data

How the results depend on the processing

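With edgeR, 0 of 12174 genes were called with all libraries (1663 at an unadjusted p under 0.05), and 0 of the 10 genes described. These counts were 0 as well with DESeq2 size factors, without a filter, with CPM over 1 in at least 3 libraries and at a threshold of 0.1. DESeq2's Wald test called 199 genes, 1 of the 10 among them, and limma-voom with quality weights called 8097, with 9 of the 10. Leaving out each library gave 0 to 3299 calls and 0 to 5 of the 10. The highest counts came without ccl5 replicate 2, and without control replicate 3 there were 237 calls and 2 of the 10. The cause was not tested. The sign turned for Trib3 without ccl5 replicate 2 (0.10) or control replicate 1 (0.10), within a range of -0.75 to 0.10 when each library was left out, and among primary transplants (0.97), for Atf4 among primary transplants (0.10), and for Ddit3 (-1.72) and Shmt2 (0.44) among libraries with Y-linked reads. Every other fold change of the 10 kept its sign in the alternatives run, and Cth was not tested under the CPM filter. Over all genes the SE of the fold change had a median of 0.31 on the log2 scale, and Cth was limited by 2 to 11 counts in 4 libraries. No paired analysis was possible because the numbers of the ccl5 libraries follow accession order and pair no samples.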
